A study of Mus musculus with 33 samples.

Results

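Tetraspanins were described in Treg, the regulatory T cells that express Foxp3, from mouse colons. The 10 genes Cd9, Cd37, Cd53, Cd63, Cd81, Cd82, Cd151, Tspan13, Tspan31 and Tspan32 were matched by symbol among the 53465 genes counted. They were chosen by their values in cancer against naive mice, where Cd9 and Tspan13 were higher, so values of that contrast are a description with no test, and tests were made between the sort gates. Every animal had the genotype Foxp3-yfp B6, and the mice were 7 to 12 weeks old when bought. 4 cancer mice (mice 5 to 8) had received azoxymethane once (AOM, 10 mg/kg) and 3 cycles of dextran sodium sulfate (DSS in drinking water, 7 days a cycle), with tissue collected 2 weeks after DSS ended. The other group was 4 naive mice (mice 1 to 4). From each mouse 200 CD45+TCR+CD4+Foxp3+ cells were sorted for each combination of TSLPR and ST2. The gates are called double-positive (TSLPR+ST2+), TSLPR single-positive (TSLPR+ST2-), ST2 single-positive (TSLPR-ST2+) and double-negative (TSLPR-ST2-), and gave 32 libraries in 8 groups of 4. TSLPR, encoded by Crlf2, binds the cytokine TSLP, and ST2, encoded by Il1rl1, binds IL-33. No group had AOM or DSS alone, so tumours, recent colitis and the chemicals cannot be told apart. 1 further library, labelled naive, held Foxp3-negative CD44low T cells.

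Tetraspanins are small membrane proteins that cross the bilayer several times and gather integrins, immunoglobulin superfamily proteins and proteases into membrane domains. Several of them shape T cell adhesion, costimulation and receptor traffic, and others mark endosomes and the vesicles that cells release. CD37, CD53 and Tspan32 are largely confined to blood cells, while CD9, CD63, CD81, CD82 and CD151 are made by many cell types, epithelium and macrophages included.

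Library totals ran from 4038718 to 8839946 counts (median 6433005). Double-positive totals were 4038718 to 5816224 in cancer mice and 6607867 to 8839946 in naive mice, without overlap. Both ST2+ gates had more Il1rl1 than both ST2- gates in 8 of 8 mice, and both TSLPR+ gates more Crlf2 than both TSLPR- gates in 7 of 8. The exception was cancer mouse 5, with 25.2 CPM (counts scaled to TMM library size) of Crlf2 in its double-positive and 30.5 CPM in its ST2 single-positive library. The double-positive library of cancer mouse 7 stood apart, with 7499.9 CPM summed over 12 epithelial markers, against at most 269 CPM in the other 31 libraries. Results that rest on either mouse are given with and without it. In sorted bulk samples, fewer cells of a type and less RNA per cell cannot be told apart.

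Per kilobase of exon, Cd53 stood far above the other members. Its mean over the 32 libraries was 799 CPM per kb, ahead of Tspan13 (171), Tspan32 (155), Cd37 (145), Cd82 (99.9), Cd81 (65.5), Cd9 (44.2), Tspan31 (27.4), Cd63 (7.83) and Cd151 (1.99). All 10 members passed the low-count filter, which kept 14861 genes. Cd151, a partner of laminin-binding integrins, was the sparsest, with 1092 counts in all and 1 library at 0.

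**Figure D1:**
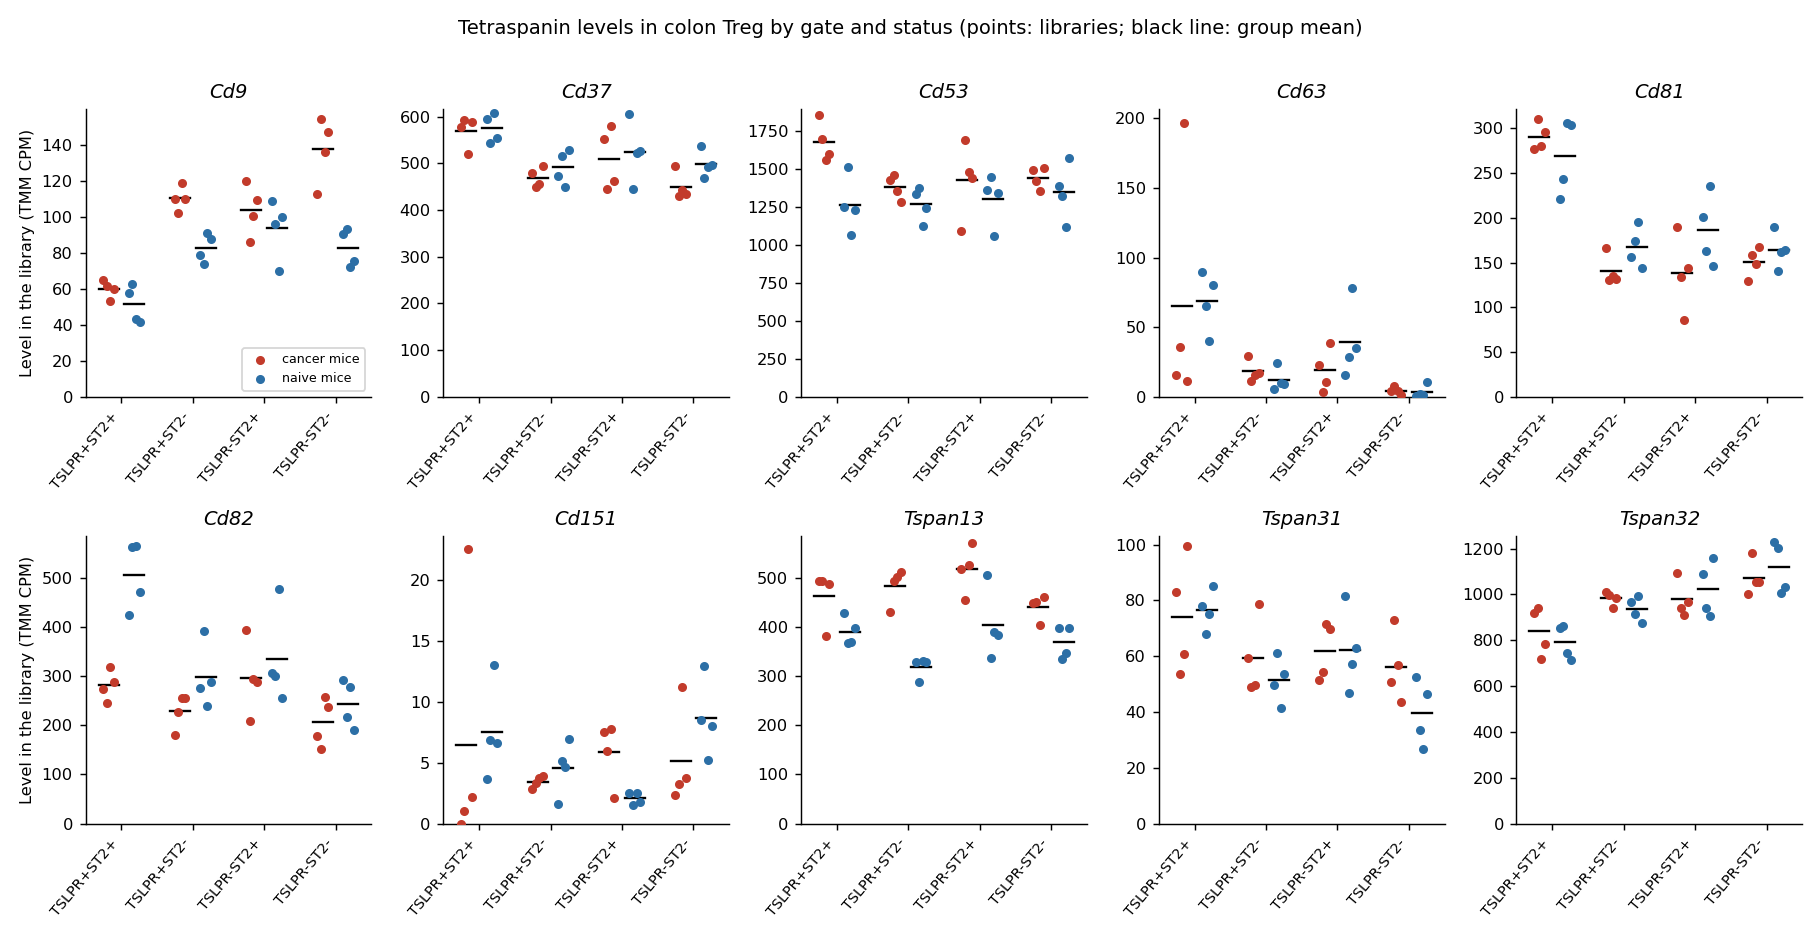
Levels of the 10 genes in CPM with TMM scaling (y axis, linear, from 0) by gate (x axis), with 1 point per library, cancer mice in red left of naive mice in blue, and a black line at each group mean (n = 4). Cd9 is lowest and Cd81 highest in double-positive libraries, and the single Cd63 point at 197 CPM is the library of cancer mouse 7.

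The promoter windows of Cd9 and Cd81, which moved in opposite directions over the gates, and of Tspan13, picked with Cd9 for its cancer values, are shown so that they can be compared. They are RefSeq windows on GRCm38.p6, from 250 bases before to 50 after the annotated start, written 5′ to 3′ on the strand of the gene, with GC boxes (GGGCGG on either strand) in capitals. Cd9 lies on the - strand at chr6:125494711-125495010, Cd81 on the + strand at chr7:143052500-143052799, and Tspan13 on the - strand at chr12:36042429-36042728.
Cd9: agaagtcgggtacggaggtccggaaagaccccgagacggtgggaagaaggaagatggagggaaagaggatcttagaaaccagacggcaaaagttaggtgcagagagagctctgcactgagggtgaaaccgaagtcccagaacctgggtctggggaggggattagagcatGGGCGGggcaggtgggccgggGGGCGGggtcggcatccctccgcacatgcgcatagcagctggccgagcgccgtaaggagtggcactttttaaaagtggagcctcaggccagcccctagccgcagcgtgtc
Cd81: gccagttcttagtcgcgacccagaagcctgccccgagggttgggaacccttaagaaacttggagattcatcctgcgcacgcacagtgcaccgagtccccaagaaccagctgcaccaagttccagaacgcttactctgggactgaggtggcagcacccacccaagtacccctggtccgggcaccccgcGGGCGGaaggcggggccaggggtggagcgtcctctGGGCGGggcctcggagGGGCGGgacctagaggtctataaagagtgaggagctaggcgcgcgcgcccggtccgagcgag
Tspan13: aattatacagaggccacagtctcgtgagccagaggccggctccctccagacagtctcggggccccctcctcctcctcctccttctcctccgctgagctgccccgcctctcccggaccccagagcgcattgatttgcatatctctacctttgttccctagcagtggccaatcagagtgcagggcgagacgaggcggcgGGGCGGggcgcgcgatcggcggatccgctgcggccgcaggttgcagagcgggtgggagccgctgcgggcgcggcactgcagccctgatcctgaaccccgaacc
Cd9 has 2 GC boxes, Cd81 3 and Tspan13 1, and the windows hold 61.3%, 65.7% and 67.3% G and C. A GC box is in 35.7% of the 32841 RefSeq windows of this length, and in 7 of the 14 windows that the 10 members have between them. The STAT motif TTCNNNGAA (both strands) is in 8.3% of all windows and in 1 of the 14, at a start of Cd82. The AP-1 motif TGANTCA (both strands) is in 7.81% of all windows and in 0 of the 14. These matches describe letters in these windows.

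5 tetraspanins rose in ST2+ Treg and 2 fell, relative to ST2- Treg. Cd63 was 5.49-fold higher, Cd82 1.42-fold, Cd81 1.36-fold, Tspan31 1.34-fold and Cd37 1.14-fold, while Cd9 and Tspan32 were lower. These 7 of 10 members stand against 6.04% of all genes tested (3.7% higher, 2.33% lower) by edgeR's quasi-likelihood test at a Benjamini-Hochberg adjusted p of 0.05. Apart from Cd63 (59.2) and Cd151 (32.2), every member was at or above the 83.4th percentile of tested genes in CPM per kb. The genes tested were not matched for level, and the members were chosen with earlier results known. No excess is therefore read from this share or those of the other gate contrasts. The median log2 fold change was 0.17 over the members and -0.0050 over all genes tested.

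Cd63, a protein of late endosomes and released vesicles, changed most. Its lowest, median and highest values were 3.25, 35.3 and 197 CPM in the 16 ST2+ libraries and 0.878, 8.65 and 29.2 CPM in the 16 ST2- libraries. The ranges overlapped, and ST2+ was higher in 8 of 8 mice, counted here and in what follows by the mean log2 level of a mouse's gates (log2 fold change 2.46 ± 0.41 SE, edgeR adjusted p = 0.000284). Without the mouse 7 double-positive library the log2 fold change was 2.05 (edgeR adjusted p = 0.000569). The summed macrophage and dendritic markers were 327 to 2635 CPM (median 787) in ST2+ libraries and 2.21 to 1173 CPM (median 152) in ST2- libraries. Of the 13 markers 12 were tested and 7 of them were higher with ST2, and Cd209a was at 0 in every ST2- library. Of 8 Treg markers 3 were lower with ST2, Foxp3 among them (log2 fold change -0.40, edgeR adjusted p = 0.0240), and 1 was higher. Also higher were 1 of 10 tested epithelial markers and the 1 tested neutrophil marker, and 0 of 6 B and plasma cell markers. Lower were 1 of 2 tested stromal and endothelial and 1 of 4 tested CD8, NK and gamma-delta T markers. The part of all these markers in the tetraspanin differences was not tested.

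Cd82, also known as the metastasis suppressor KAI1, had 209, 304 and 566 CPM as lowest, median and highest values with ST2, against 153, 248 and 393 CPM without it. It was higher in ST2+ cells of 8 of 8 mice, though the ranges overlapped (log2 fold change 0.51 ± 0.10 SE, edgeR adjusted p = 0.00168). Cd37, a leukocyte tetraspanin, had 445, 554 and 608 CPM with ST2, against 429, 476 and 538 CPM without it. That small rise was present in 8 of 8 mice (log2 fold change 0.19 ± 0.045 SE, edgeR adjusted p = 0.00972).

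Tspan31, known as a gene amplified in human sarcomas, had 46.9, 68.7 and 99.5 CPM with ST2, against 26.7, 50.1 and 78.7 CPM without it. ST2+ was higher in 7 of 8 mice, with overlapping ranges (log2 fold change 0.42 ± 0.11 SE, edgeR adjusted p = 0.0244). Leaving out mouse 1, 3, 4, 5, 7 or 8 ended that call (edgeR adjusted p up to 0.0911). Tspan31 overlaps Cdk4 on the opposite strand, and as the strand of the counts is not given, reads of the pair cannot be told apart. Cdk4 itself had a median of 236 CPM with ST2 and 267 CPM without it, and did not pass.

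Tspan32 (also called Tssc6) restrains T cell proliferation in mice. It had 716, 914 and 1157 CPM as lowest, median and highest values with ST2, against 876, 1005 and 1231 CPM without it. It was lower in ST2+ cells by a small amount, in 8 of 8 mice by the mean log2 level and in 7 of 8 by the mean CPM (log2 fold change -0.18 ± 0.047 SE, edgeR adjusted p = 0.0167). Leaving out mouse 2, 3, 7 or 8 ended the call (edgeR adjusted p up to 0.0670). Cd53, Cd151 and Tspan13 did not pass, with 95% intervals of the log2 fold change of -0.068 to 0.17, -0.97 to 0.85 and 0.038 to 0.26 (edgeR adjusted p = 0.721, 1.00 and 0.0960). Tspan13 passed in DESeq2 (adjusted p = 0.0247) and without the mouse 7 library (edgeR adjusted p = 0.0465).

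For TSLPR, 4 of 10 tetraspanins passed, against 13.4% of all genes tested (7.97% higher, 5.46% lower). Cd63 and Cd81 were higher in TSLPR+ than in TSLPR- Treg, and Cd9 and Tspan32 were lower. Each of these 4 genes had the same direction with ST2, over the same 32 libraries, and the double-positive libraries enter both contrasts. Among ST2- Treg, mean Cd81 with and without TSLPR was 141 and 151 CPM in cancer mice and 168 and 164 CPM in naive mice. Mean Cd9 there was 110 and 138 CPM in cancer mice and 82.8 and 82.9 CPM in naive mice.

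Cd63 had 5.51, 20.8 and 197 CPM as lowest, median and highest values with TSLPR, against 0.878, 9.32 and 78.1 CPM without it. It was higher in 8 of 8 mice by the mean log2 level, though by the mean CPM in 6 of 8 (log2 fold change 1.60 ± 0.40 SE, edgeR adjusted p = 0.00710). The log2 fold change was 1.201 without the mouse 7 double-positive library (edgeR adjusted p = 0.0253), and 1.16 without all of mouse 7, where the call was lost (edgeR adjusted p = 0.0579). Tspan32 had 716, 916 and 1011 CPM with TSLPR, against 908, 1043 and 1231 CPM without it, lower in 8 of 8 mice (log2 fold change -0.24 ± 0.047 SE, edgeR adjusted p = 0.000593). Cd82 did not pass (log2 fold change 0.24, 95% interval 0.035 to 0.45, edgeR adjusted p = 0.112), and passed without mouse 3 (edgeR adjusted p = 0.0281). Without mouse 5 the log2 fold changes were 1.62 for Cd63, 0.40 for Cd81, -0.50 for Cd9 and -0.24 for Tspan32, all still called. With TSLPR, 7 of 12 tested macrophage and dendritic markers, 5 of 6 B and plasma cell markers and 3 of 10 tested epithelial markers were higher as well. Of 8 Treg markers 5 were higher with TSLPR and 0 lower. Summed, the B and plasma cell markers were 39.2 to 823 CPM with TSLPR and 31.5 to 131 CPM without it, and the macrophage and dendritic markers 142 to 2193 CPM with TSLPR and 2.21 to 2635 CPM without it.

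**Figure D2:**
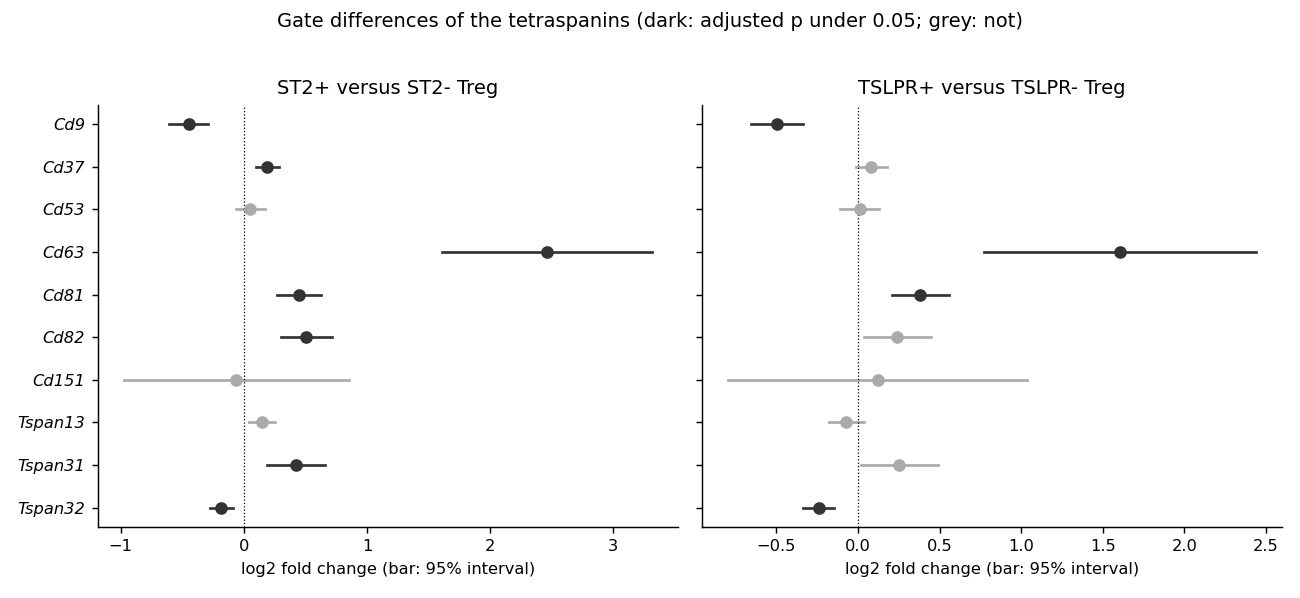
The log2 fold change of each gene with its 95% interval (x axis) for ST2+ versus ST2- Treg on the left and TSLPR+ versus TSLPR- Treg on the right, each over 32 libraries. Cd9 lies left of 0 and Cd63 and Cd81 right of 0 in both panels, in the dark tone of calls, and the interval of Cd63 is wide.

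Cd9 and Cd81 moved in opposite directions over the gates. Cd9 associates with integrins and with Igsf8 and Ptgfrn. Cd81 is known as a costimulatory protein of T cells. In double-positive libraries Cd9 had 65.1, 61.7, 53.3 and 60.1 CPM in cancer mice and 57.5, 62.8, 43.2 and 41.8 CPM in naive mice. These values, 41.8 to 65.1 CPM, lay below all values of the other gates, 69.8 to 154 CPM, and the double-positive library was the lowest in 8 of 8 mice. TSLPR single-positive libraries had 109.8, 102, 119 and 110.0 CPM in cancer mice and 78.6, 73.6, 91.2 and 87.7 CPM in naive mice. ST2 single-positive libraries had 119.9, 86.2, 101 and 109 CPM in cancer mice and 109, 96.1, 69.8 and 100.1 CPM in naive mice. Double-negative libraries had 113, 154, 136 and 147 CPM in cancer mice and 90.4, 93.4, 72.1 and 75.6 CPM in naive mice. The cancer values were above all naive values in TSLPR single-positive and double-negative libraries and overlapped them in the other gates. Averaged over the gates, Cd9 fell with ST2 (log2 fold change -0.45 ± 0.077 SE, edgeR adjusted p = 0.000361) and with TSLPR (-0.50 ± 0.077 SE, edgeR adjusted p = 4.11e-05), each in 8 of 8 mice. Among TSLPR- Treg, however, its mean in naive mice was higher with ST2 (93.7 CPM) than without it (82.9 CPM). In cancer mice it was lower, at 104 against 138 CPM. Reads of Gm28809 and Gm26728, which overlap Cd9, may be counted with it. Cd37, Cd81, Cd82, Cd151 and Tspan32 also overlap annotated genes, while Cd53, Cd63 and Tspan13 overlap none.

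Cd81 was highest in double-positive libraries, with 277, 310.4, 280.1 and 296 CPM in cancer mice and 222, 244, 307 and 304 CPM in naive mice. The other gates together ran from 86.4 to 236 CPM, so the ranges overlapped, and the double-positive library was the highest in 8 of 8 mice. TSLPR single-positive libraries had 166, 131, 135 and 132 CPM in cancer mice and 156, 175, 196 and 144 CPM in naive mice. ST2 single-positive libraries had 190.1, 134, 86.4 and 144 CPM in cancer mice and 201, 163, 236 and 146 CPM in naive mice. Double-negative libraries had 129.99, 159, 148 and 167 CPM in cancer mice and 189.8, 141, 162 and 164 CPM in naive mice. These last 3 gates overlapped one another in cancer and in naive mice. Averaged over the gates, Cd81 rose with ST2 (log2 fold change 0.45 ± 0.085 SE, 8 of 8 mice, edgeR adjusted p = 0.00129) and with TSLPR (0.38 ± 0.085 SE, 7 of 8 mice, edgeR adjusted p = 0.00259). Among TSLPR- Treg its mean with and without ST2 was 139 and 151 CPM in cancer mice and 186 and 164 CPM in naive mice.

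Whether the effect of ST2 differed with TSLPR was tested as an interaction, the ST2 effect among TSLPR+ minus that among TSLPR- Treg. For Cd81 it was 0.83 ± 0.17 SE on the log2 scale and above 0 in 8 of 8 mice (edgeR adjusted p = 0.0993). For Cd9 it was -0.67 ± 0.15 SE and below 0 in 7 of 8 mice (edgeR adjusted p = 0.155). Neither passed, and 0% of the 14861 genes passed in edgeR, with 1094 at an unadjusted p under 0.05. DESeq2 called 103 genes, among them these 2 members (adjusted p = 0.000797 for Cd81 and 0.00819 for Cd9), and limma-voom called 0. Cd81 passed in edgeR without mouse 5 (log2 value 1.03, adjusted p = 0.0316). The 95% intervals of the other 8 members include 0.

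**Figure D3:**
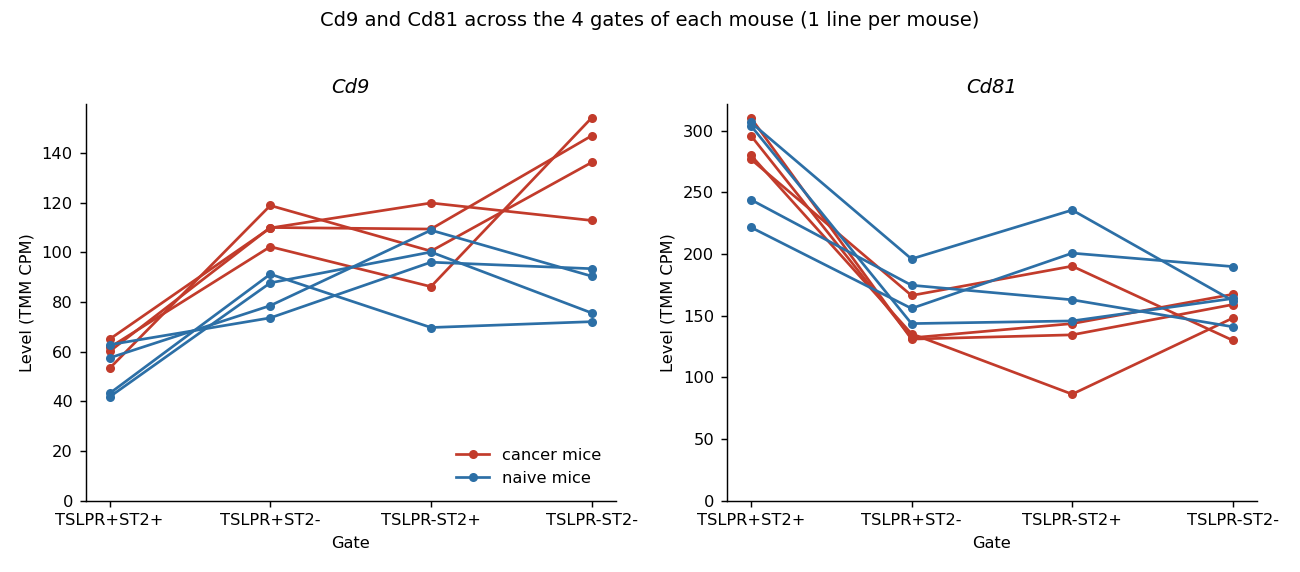
Cd9 (left) and Cd81 (right) in CPM (y axis, from 0) across the 4 gates (x axis), with 1 line per mouse, cancer in red and naive in blue. Every mouse has its lowest Cd9 and its highest Cd81 in the double-positive gate, at 41.8 to 65.1 and 222 to 310.4 CPM.

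The macrophage and dendritic sums of double-positive libraries were 392.4 to 794 CPM in cancer mice and 1378 to 2193 CPM in naive mice, without overlap, while their Cd81 values overlapped. Cd82 in these libraries was lower in cancer mice, as the sums were, at 245 to 320.2 CPM against 425 to 566 CPM, without overlap. Cd53 was higher in cancer mice without overlap, and 8 members, Cd81 and Cd63 among them, overlapped. ST2 single-positive libraries of cancer mice held sums of 327 to 2033 CPM. Their Cd81, 86.4 to 190.1 CPM, lay below the 277 to 310.4 CPM of double-positive libraries of the same mice, and their Cd9, 86.2 to 119.9 CPM, above the 53.3 to 65.1 CPM there. In naive mice, ST2 single-positive libraries held sums of 601 to 2635 CPM, and their Cd81, 146 to 236 CPM, overlapped the 222 to 307 CPM of double-positive libraries, while their Cd9, 69.8 to 109 CPM, lay above the 41.8 to 62.8 CPM there. In naive mice the group means of Cd63 had the same order as the median sums, highest in double-positive (Cd63 39.9 to 89.5 CPM, sums 1378 to 2193 CPM) and lowest in double-negative libraries (Cd63 0.878 to 10.9 CPM, sums 14.1 to 160.2 CPM). Cancer mice had the same order, double-positive, ST2 single-positive, TSLPR single-positive and double-negative. Their Cd63 means were 64.9, 18.9, 18.4 and 4.34 CPM, and their median sums 609, 439, 342 and 18.8 CPM. This order holds for medians of the sums, whose ranges overlapped between the gates other than double-negative. The sums were 392.4 to 794 CPM in double-positive, 327 to 2033 CPM in ST2 single-positive and 142 to 1173 CPM in TSLPR single-positive libraries. Cd63 overlapped there too, with 11.2 to 197, 3.25 to 38.9 and 11.5 to 29.2 CPM. Without the mouse 7 library and with scaling unchanged, the double-positive Cd63 mean was 20.9 CPM. The part of these markers in the tetraspanin levels was not tested.

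**Figure D4:**
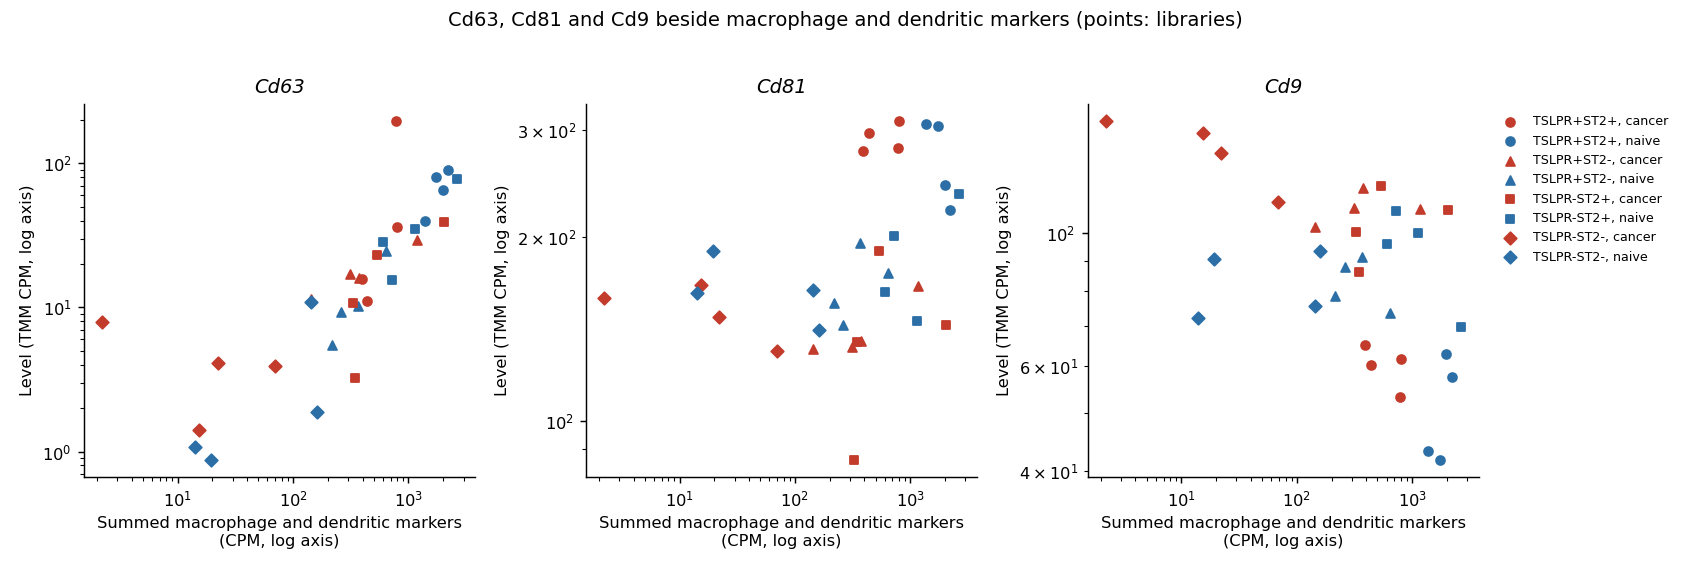
Cd63, Cd81 and Cd9 in CPM (y axes, log) against the summed CPM of 13 macrophage and dendritic markers (x axes, log), with 1 point per library, the gate as the symbol and the status as the colour. The mouse 7 library has the highest Cd63, 197 CPM, and double-positive libraries hold the lowest Cd9 values over sums of 392.4 to 2193 CPM.

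Between the single-positive gates, TSLPR+ST2- against TSLPR-ST2+, 0 of 10 tetraspanins passed in edgeR, DESeq2 or limma-voom, against 2.67% of all genes tested (1.4% higher, 1.27% lower). By unadjusted edgeR p, Tspan13 was the only member under 0.05, 1.16-fold lower in TSLPR single-positive Treg, in 7 of 8 mice (95% interval of the log2 fold change -0.37 to -0.064, edgeR adjusted p = 0.108). The intervals of the other 9 include 0, and reach from -0.27 to 0.18 for Cd9, from -0.31 to 0.19 for Cd81 and from -1.995 to 0.29 for Cd63.

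Within cancer mice, Cd9 fell with ST2 (log2 fold change -0.64 ± 0.11 SE, edgeR adjusted p = 0.000732), and Cd81 (0.46) and Cd37 (0.23) rose, 3 of 10 members against 2.35% of all genes tested (1.43% higher, 0.915% lower). The Cd81 call was lost without the mouse 7 double-positive library (edgeR adjusted p = 0.0551), without mouse 1, 2, 5, 6 or 8, with no low-count filter (edgeR adjusted p = 0.0702) and in limma-voom (adjusted p = 0.0579). The Cd37 call was lost without mouse 1, 2, 4, 5, 6, 7 or 8 and with no filter (edgeR adjusted p = 0.136). Mice 1, 2 and 4 are naive and enter these fits through the shared spread and the p adjustment. The log2 fold change stayed at 0.23 for Cd37 without mouse 1, 2 or 4, and at 0.46 for Cd81 without mouse 1 or 2. Within naive mice, Cd63 (2.95) and Cd82 (0.61) rose with ST2, 2 of 10 against 0.962% of all genes tested (0.666% higher, 0.296% lower). Leaving out mouse 1 or 3 ended the Cd63 call and leaving out mouse 1, 2, 3 or 4 the Cd82 call. Cd9 had a log2 fold change of -0.26 there without passing (edgeR adjusted p = 0.325).

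With TSLPR, Cd9 fell in cancer mice (-0.56, edgeR adjusted p = 0.00204) and Cd63 (1.92) and Cd81 (0.49) rose, 3 of 10 against 7.11% of all genes tested (3.95% higher, 3.16% lower). Without the mouse 7 library the log2 fold change of Cd63 was 1.11 and not called (edgeR adjusted p = 0.219). Cd63 was also not called with no low-count filter (edgeR adjusted p = 0.0690), in limma-voom (adjusted p = 0.173) or without mouse 2, 5 or 7, nor Cd81 without mouse 7. Mouse 2 is naive, and without it the Cd63 log2 fold change was 1.93. In naive mice Cd9 (-0.43, edgeR adjusted p = 0.0152) and Tspan32 (-0.31) fell, 2 of 10 against 4.48% of all genes tested (2.64% higher, 1.84% lower). These calls were lost without mouse 1, 2 or 4 for Cd9 and without mouse 1 or 4 for Tspan32. With the mouse as a block, the Cd37 call with ST2 (edgeR adjusted p = 0.0599) and the Cd63 call with TSLPR (edgeR adjusted p = 0.115) in cancer mice were lost, and Cd82 was called higher with TSLPR in naive mice (edgeR adjusted p = 0.0453). The difference of these effects between cancer and naive mice was not tested.

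For cancer against naive mice, the 4 gates of a mouse were summed. Then 4 of 10 members had cancer and naive values that did not overlap, against 11.3% of all genes (5.53% higher, 5.8% lower), Cd9 and Tspan13 higher and Cd81 and Cd82 lower in cancer mice. As the members were chosen by this contrast, nothing is read from the count. Cd9 had 106, 105, 105 and 108 CPM in cancer mice and 84.3, 80.5, 68.3 and 73.1 CPM in naive mice. Its mean was 106 ± 1.34 CPM in cancer mice and 76.5 ± 7.19 CPM in naive mice (SD, n = 4 each), 1.38-fold, and all 4 cancer mice lay close together above every naive mouse. Tspan13, a less characterised member, had 471, 470.3, 456 and 509 CPM in cancer mice and 416, 334, 366 and 379.9 CPM in naive mice. Its mean was 477 ± 22.8 CPM in cancer mice and 374 ± 34.1 CPM in naive mice (SD, n = 4 each), 1.27-fold, without overlap.

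Cd82 had 259.9, 204, 277 and 267 CPM in cancer mice and 326, 384, 412 and 322 CPM in naive mice, so that every cancer mouse was below every naive mouse, with means that differed by 1.43-fold. Cd81 had 182, 178, 150.1 and 181 CPM in cancer mice and 193, 185, 234 and 202 CPM in naive mice, with a narrow gap between the groups and means that differed by 1.18-fold. With each gate given the same weight, so that library totals do not enter, Cd81 had 191, 184, 162 and 185 CPM in cancer mice and 192, 181, 225 and 189 CPM in naive mice, and the groups overlapped. By that measure Cd9, Tspan13 and Cd53 were higher and Cd82 lower in every cancer mouse than in every naive mouse, 4 of 10 members against 12.5% of all genes (6.34% higher, 6.16% lower). Summed over the gates, Cd63 had 18.5, 13.7, 44.6 and 17.9 CPM in cancer mice and 27.7, 33.3, 35.6 and 39.9 CPM in naive mice. The groups overlapped. Cancer mice 5, 6 and 8 lay below all naive mice and mouse 7 above them. The log2 difference of Cd63, cancer minus naive, was -0.53 with the mouse 7 double-positive library and -1.18 without it. The mitochondrial share of the counts was 1.39 to 1.88% per cancer mouse and 0.775 to 1.15% per naive mouse, without overlap. The part of this share in these differences was not tested.

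**Figure D5:**
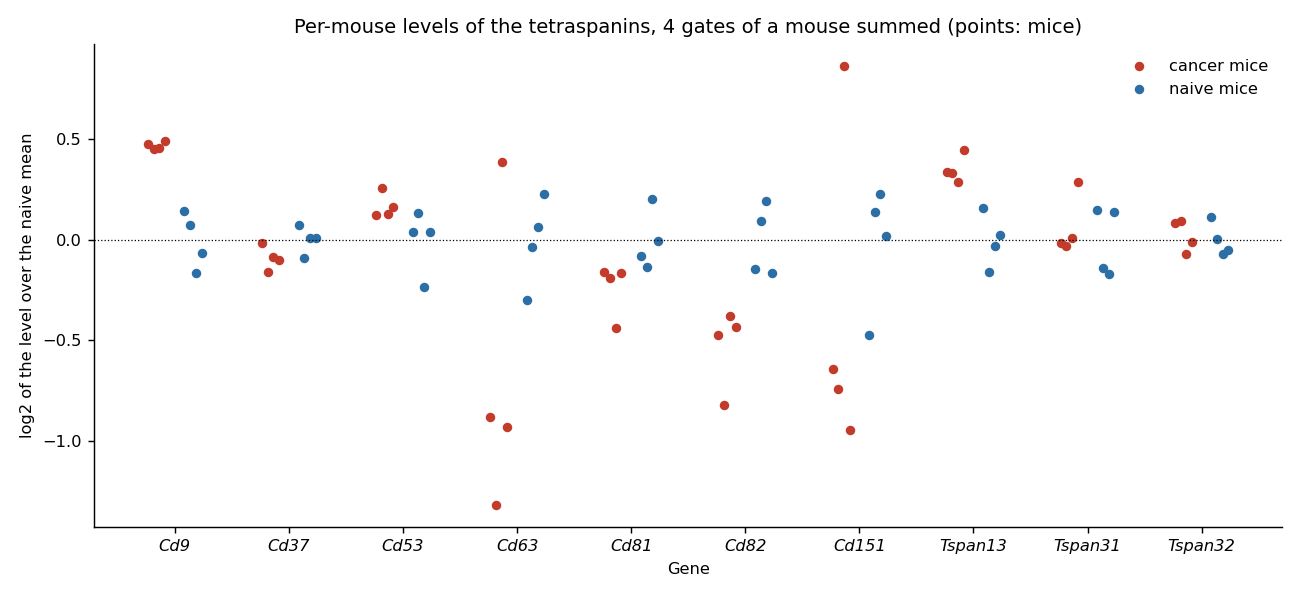
The log2 of each mouse's level over the mean of the naive mice (y axis) for the 10 genes (x axis), from counts summed over 4 gates, with 1 point per mouse, cancer in red left of naive in blue. The red and blue points of Cd9, Tspan13, Cd81 and Cd82 do not overlap, and the high red points of Cd63 and Cd151 are mouse 7.

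By gate, the Cd9 means differed most in double-negative Treg, by 1.66-fold, and by 1.33-fold in TSLPR single-positive, 1.11-fold in ST2 single-positive and 1.17-fold in double-positive Treg. Tspan13 differed most in TSLPR single-positive Treg, with 430.0, 493, 501 and 511 CPM in cancer mice and 328, 288, 331 and 328 CPM in naive mice, 1.52-fold and without overlap. In double-negative Treg it had 449, 450.0, 404 and 461 CPM in cancer mice and 398, 335, 346 and 398 CPM in naive mice, again without overlap. Its ranges overlapped in ST2 single-positive (455 to 571 CPM in cancer and 336 to 505 CPM in naive mice) and in double-positive libraries (382 to 494 CPM in cancer and 367 to 427 CPM in naive mice, where the lowest cancer value was mouse 7).

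In double-negative Treg 2 members, Cd9 and Tspan13, did not overlap, against 5.34% of all genes (2.35% higher, 2.99% lower). The same 2 did not overlap in TSLPR single-positive Treg, against 6.97% of all genes (2.95% higher, 4.02% lower). In ST2 single-positive Treg 0 members did so, against 3.65% of all genes (1.53% higher, 2.11% lower), and in double-positive Treg 2, Cd53 and Cd82, against 9.46% of all genes (3.98% higher, 5.48% lower). Cd53, a leukocyte tetraspanin, had 1858, 1702, 1562 and 1599 CPM in cancer mice and 1250.4, 1517, 1067 and 1229.7 CPM in naive mice there, all higher in cancer mice. Cd82 had 275, 245, 320.2 and 288 CPM in cancer mice and 425, 565, 566 and 472 CPM in naive mice, all lower in cancer mice. Without the mouse 7 library, 5 members did not overlap in double-positive Treg, against 14.1% of all genes (6.28% higher, 7.77% lower). The other 3 were Tspan13, with 488 to 498 CPM in the 3 cancer mice and 369.6 to 429 CPM in naive mice, Cd63, with 11.2 to 36.2 CPM and a mean of 21.1 CPM in these cancer mice and 40.5 to 89.8 CPM in naive mice, and Cd151, with 0 to 2.21 CPM in these cancer mice and 3.65 to 13.2 CPM in naive mice. With the mouse 7 library the Cd63 mean was 64.9 CPM in cancer mice and 68.8 CPM in naive mice.

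Ordered by group mean, Cd9 was highest in double-negative Treg of cancer mice and lowest in double-positive Treg of naive mice, 2.68-fold apart, and 1 of the 7 steps between neighbours, the one down to double-positive Treg of cancer mice, was free of overlap. All 4 cancer groups of Tspan13 had higher means than all 4 naive groups. Cd63 spanned 18.7-fold, from double-positive to double-negative Treg of naive mice, with 0 steps free of overlap. Without the double-negative library of naive mouse 4, the highest of its group at 60 counts, the span was 53.9-fold. The others of that group hold 6, 9 and 7 Cd63 counts, so this span rests on few counts. Over the 8 group means, the genes whose log2 levels were most like Cd9 were Pold2 (Pearson r = 0.973), Chd1 (0.971) and Ssbp2 (0.968), of 8631 protein-coding genes with a mean of at least 10 CPM. For Tspan13 they were Kmt2b (0.979), Rsbn1 (0.958) and Kansl1l (0.924). These describe 8 points that share mice and depth.

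Of 21 other tetraspanin genes 15 were tested. Tspan14 (mean 141 CPM, 53.1 CPM per kb) and Tspan3 (129 CPM, 30.1 CPM per kb) were the most abundant. With ST2, 1 of the 15 rose, Tspan7, detected in 10 of 16 ST2+ and 1 of 16 ST2- libraries (edgeR adjusted p = 0.00616), a share near the 6.04% of all genes tested. With TSLPR, 2 of the 15 rose, Tspan1 and Tspan8, both known from epithelium, against 13.4% of all genes tested (edgeR adjusted p = 0.0250 and 0.0147). They stood at 936 and 219 CPM in the mouse 7 double-positive library, against at most 34.5 and 11.5 CPM in the other 31. Neither was called without that library (edgeR adjusted p = 0.146 and 0.191) or in limma-voom (adjusted p = 0.515 and 0.147). Neither was called with the mouse as a block (edgeR adjusted p = 0.116 and 0.0812), Tspan1 not without mouse 1, 4, 5 or 7, and Tspan8 not without mouse 1 or 7. Tspan1 was also not called with no filter (edgeR adjusted p = 0.0765), and DESeq2 gave no adjusted p for Tspan8. In cancer mice Tspan1 also rose with TSLPR and Upk1a, a urothelial tetraspanin, with ST2 (edgeR adjusted p = 0.0353 and 0.0313). Neither was called without the mouse 7 double-positive library (edgeR adjusted p = 0.386 and 0.0585), Tspan1 not with no filter or in limma-voom, and Upk1a not with the mouse as a block (edgeR adjusted p = 0.0898). Tspan2, Tspan4, Tspan5, Tspan6, Tspan9, Tspan10, Tspan17, Tspan33 and Rom1 were tested and passed in none of the 4 comparisons over all mice.

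Of 21 partner genes, all tested, 3 rose and 0 fell with ST2, against 6.04% of all genes tested (3.7% higher, 2.33% lower), and 3 rose and 2 fell with TSLPR, against 13.4% of all genes tested (7.97% higher, 5.46% lower). With the mouse as a block, Cd2, an adhesion receptor of T cells, was also called, lower with ST2 (edgeR adjusted p = 0.0405, against 0.0681 without the block) and higher in TSLPR single-positive than in ST2 single-positive Treg (edgeR adjusted p = 0.0412, against 0.0777). Itgb1, an integrin beta chain, averaged 501 ± 187 CPM with ST2 and 141 ± 40.0 CPM without it, without overlap (SD, n = 16 each, 3.42-fold, edgeR adjusted p = 4.71e-10). With TSLPR it was 1.36-fold lower (edgeR adjusted p = 0.0220), a call lost without mouse 1, 3, 5 or 8. Itga6, a laminin-binding integrin chain and partner of Cd151, averaged 117 ± 23.1 CPM with TSLPR and 210.3 ± 38.9 CPM without it, lower in 8 of 8 mice (SD, n = 16 each, edgeR adjusted p = 8.05e-08). Cd44, an adhesion receptor, and Sdcbp (syntenin-1), an adaptor that binds Cd63, rose with both receptors, by 0.84 and 0.16 on the log2 scale with ST2. The Sdcbp call with ST2 was lost without mouse 2, 3, 6 or 8, and that with TSLPR without mouse 2, and both with no low-count filter (edgeR adjusted p = 0.0610 and 0.0656). Between the single-positive gates, Itga6 (log2 fold change -0.77) and Itgb1 (-2.22) were lower in TSLPR single-positive Treg (edgeR adjusted p = 0.000459 and 1.47e-08).

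In the Foxp3-negative CD44low library, 1 sample with 7022068 counts and 2 of them for Foxp3, Cd63 had 0 counts, which allows up to 0.427 CPM (3 counts, counting error only), against 0.866 to 178 CPM in Treg, all in CPM of plain totals. Cd81 (71.2 CPM), Cd82 (103 CPM) and Tspan13 (240.0 CPM) lay below the lowest Treg library (87.4, 153 and 286 CPM). Cd9 (107 CPM), Cd37 (502 CPM), Cd53 (1704 CPM), Cd151 (0.712 CPM), Tspan31 (41.9 CPM) and Tspan32 (805 CPM) lay inside the range of all Treg libraries. Against naive Treg libraries alone, Cd53 lay above the highest (1563 CPM) and Cd151 below the lowest (1.55 CPM). With 1 library there is no test.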

How the data were processed

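The authors' deposited table gives raw gene counts of 33 libraries (SMART-Seq v4, Nextera XT, single 58-base reads, per the labels). The submitters' processing notes name HTSeq 0.4.1, Picard 1.134, FastQC 0.11.3, SAMtools 1.2 and GRCm38. The sources used here do not name an aligner or the counting strand. Exon lengths came from GENCODE M21.

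A means model of all 8 groups was fitted in edgeR 4.0.16 under R 4.3.3 (TMM, filterByExpr with minimum count 10 and minimum total 15, robust quasi-likelihood F-test), so that groups share 1 spread, with p adjusted over 14861 genes. Receptor contrasts average cancer and naive mice. CPM use TMM-scaled totals, which were 4038718 to 8839946 counts before scaling. Per-mouse values sum the gates. Gates of 1 mouse share the animal, which pairs them. Their residuals correlated at 0.0112 on average over 48 pairs, against -0.00372 over 144 pairs from different mice. Other settings were RLE scaling, DESeq2 1.42.0, no filter, a mouse block, voom (limma 3.58.1) with mice as random effects, and leaving out each mouse. The code was tested on simulated data.

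The members and lists were chosen with earlier results of these data known. Named are the members, tested other tetraspanins, up to 4 passing partners per receptor comparison by smallest p, 3 pattern neighbours each of Cd9 and Tspan13, and the sort genes. Cdk4, Cd2, Gm28809 and Gm26728 were added after their values were seen. 1 passing partner is not reported here.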

Additional observations from a re-analysis of the deposited data

Results flagged for a closer look

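In 7 of 80 groups of 4 libraries checked, 1 library lay far from the other 3, and chance flags about 1 in 20. 3 of these come from the TSLPR+ST2+ library of cancer mouse 7, which has the high epithelial markers: Cd63 was 197 CPM against 11.2 to 35.8 CPM in the other 3 cancer mice, Cd151 was 22.5 CPM against 0 to 2.20 CPM, and Tspan13 was lowest at 382 CPM against 486 to 494 CPM. Cd151 was also highest in the TSLPR-ST2- library of mouse 7, at 11.2 CPM against 2.34 to 3.74 CPM. Cd63 was highest in naive mouse 4 among TSLPR-ST2- libraries, at 10.9 CPM against 0.878 to 1.88 CPM. Cd81 was highest in mouse 5 among cancer TSLPR+ST2- libraries, at 166 CPM against 131 to 135 CPM. Tspan13 was lowest in mouse 2 among naive TSLPR+ST2- libraries, at 288 CPM against 328 to 331 CPM.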

How the results depend on the processing

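With ST2, 7 members passed under RLE scaling, no filter, voom and the replicate block, 8 under DESeq2 and without the mouse 7 double-positive library (an exclusion chosen after seeing the data), and 5 to 7 without 1 mouse. With TSLPR, 4 passed under each of these and 3 to 5 without 1 mouse. The replicate block changed no call of a member other than the 3 given above, and of the other tetraspanins and partners only those of Tspan1, Tspan8, Upk1a and Cd2. The interaction was called for 2 members under DESeq2 and for 0 to 1 without 1 mouse. With ST2 in cancer mice 1 member passed with no filter and 1 to 3 without 1 mouse, and in naive mice 4 under DESeq2 and 0 to 3 without 1 mouse. With TSLPR, 1 to 3 passed in cancer and 0 to 3 in naive mice without 1 mouse. Of the cancer against naive counts, 4 to 6 members did not overlap without 1 mouse, 5 without the mouse 7 library, and 4 (3 higher, 1 lower) by the mean of the gates, where Cd53 entered and Cd81 left. By gate, settings chosen after seeing the data gave 2 to 3 members in double-negative, 0 to 1 in ST2 single-positive, 2 to 3 in TSLPR single-positive and 2 to 5 in double-positive Treg without 1 mouse, 5 in double-positive Treg without the mouse 7 library, and the counts of the report under RLE scaling and no filter. The causes were not tested, and fits without a mouse hold fewer samples.

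No called log2 fold change of a member changed sign. Uncalled values that did were Cd151 with TSLPR (-0.12 with the replicate block, -0.31 with voom, -0.51 without the mouse 7 library, -0.29 to 0.27 without 1 mouse) and, without 1 mouse, Cd151 with ST2 (-0.54 to 0.069), Cd53 with TSLPR (-0.025 to 0.039), Cd9 between the single-positive gates (-0.13 to 0.0063), and the interactions of Cd82 (-0.041 to 0.12), Tspan13 (-0.0956 to 0.0019) and Tspan31 (-0.012 to 0.15).

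Over all genes, edgeR and DESeq2 called 397 and 810 between the single-positive gates (voom 675), 349 and 745 with ST2 in cancer mice, 143 and 361 with ST2 in naive mice, and 0 and 103 for the interaction (replicate block 3). Without 1 mouse, edgeR called 459 to 783 genes with ST2 (897 with all mice), 1303 to 1939 with TSLPR (1996), 207 to 527 between the single-positive gates, 179 to 344 and 35 to 168 with ST2 in cancer and in naive mice, and 453 to 1060 and 267 to 689 with TSLPR in cancer (1057) and in naive mice (666). Of the members Cd151 rested on the fewest counts, 1092 in all 32 libraries.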
